A study of Mus musculus with 12 samples.

Results

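The alpha and beta tubulins of mouse liver were compared between sedentary mice and mice that had run for 3 h after a meal. The set is the 10 tubulin genes Tuba1a, Tuba1b, Tuba1c, Tuba4a, Tuba8, Tubb2a, Tubb2b, Tubb4b, Tubb5 and Tubb6, out of 17432 genes in the table. They were picked because genes of the tubulin folding pathway were lower after exercise in these same livers, so every Exercise against Sedentary value of a member is given as a description, without a test. Of the 9 members with enough reads to be fitted, all 9 had a lower estimate after exercise. Tuba1c had the largest difference and was 52.5% lower, Tubb2a was 32.3% lower, and Tubb5 was only 3.94% lower with a standard error larger than the difference.

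Liver RNA was sequenced from 12 male wild-type C57BL/6J mice aged 8 to 10 weeks, 6 per group and 1 library per mouse. All mice had been put on a schedule of daytime feeding and overnight fasting for 3 days, were placed on the treadmill each day, and were fed for 3 h before the experiment. The Exercise mice then ran a single bout at 14 m/min for 3 h, and the Sedentary mice did not. Total counts were 18971992 to 19324461 per Sedentary library and 18745379 to 19001010 per Exercise library. Bulk liver holds several cell types, so fewer cells of a type and less RNA per cell cannot be told apart.

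Alpha and beta tubulin pair into heterodimers, which polymerise head to tail into microtubules, the tracks for vesicle and organelle transport and, in hepatocytes, for the delivery of secreted proteins and membrane components to the sinusoidal and canalicular surfaces. The genes of each family encode isotypes that are nearly alike in their folded bodies and differ mostly in the acidic C-terminal tail, where enzymes remove and add tyrosine and attach glutamate chains. New tubulin chains are folded by prefoldin, the chaperonin TRiC and the tubulin cofactors. When free tubulin dimers are abundant, tubulin mRNAs are degraded during their own translation, through TTC5, which recognises the first residues of the nascent chain.

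Both ends of the coding sequences are shown. The last bases encode the tail in which the isotypes mostly differ, and the first encode the residues that the autoregulation reads. They were taken from the GENCODE M21 transcripts on GRCm38. The last 60 coding bases of 4 members follow, 5′ to 3′ on the coding strand, with the codon before the stop in capitals.
Tuba1c: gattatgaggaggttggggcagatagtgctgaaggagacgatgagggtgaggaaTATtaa
Tuba4a: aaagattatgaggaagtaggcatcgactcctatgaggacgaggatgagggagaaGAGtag
Tubb2a: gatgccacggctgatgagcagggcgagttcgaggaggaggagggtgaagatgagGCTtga
Tubb4b: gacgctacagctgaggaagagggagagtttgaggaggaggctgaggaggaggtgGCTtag
These stretches lie at chr15:99037950-99038009 on the plus strand for Tuba1c, chr1:75215622-75215681 on the minus strand for Tuba4a, chr13:34074468-34074527 on the minus strand for Tubb2a and chr2:25222308-25222367 on the minus strand for Tubb4b. The codon before the stop was tat in Tuba1c, gag in Tuba4a and ttt in Tuba8. As background, the detyrosination cycle acts on the tyrosine encoded at this place, and Tuba4a is known as an alpha isotype made without it. Tuba8 has no tyrosine codon there either, since ttt encodes phenylalanine.

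The first 4 codons, which encode the stretch read by the autoregulation, are given for 6 members. Capitals mark bases that differ from Tuba1b among the alpha genes and from Tubb4b among the beta genes.
Tuba1b: atgcgtgagtgc
Tuba4a: atgcgCgagtgc
Tuba8: atgAgGgaAtgc
Tubb4b: atgagggagatc
Tubb2a: atgCgCgagatc
Tubb5: atgagggaAatc
There were 3 different versions of these 12 bases among the 5 alpha genes, and each of the 4 beta genes read, Tubb2b included, had its own. All these differences are synonymous: the 4 residues are MREC in every alpha gene and MREI in every beta gene read.

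Promoter sequences from RefSeq, on GRCm38.p6, were matched for 8 of the 10 members, with no entry for Tubb2b and Tubb6. The 120 bases before the start site are shown for the members with the largest difference in each family among those with an entry, and for Tubb4b, whose difference was small. Capitals mark the short promoter motifs named after the sequences, found on either strand.
Tuba1c: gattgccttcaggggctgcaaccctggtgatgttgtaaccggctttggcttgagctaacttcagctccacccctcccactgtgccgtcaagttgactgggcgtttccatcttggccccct
Tubb2a: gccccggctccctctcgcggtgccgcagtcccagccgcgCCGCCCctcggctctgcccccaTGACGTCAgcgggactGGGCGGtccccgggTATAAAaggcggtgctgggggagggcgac
Tubb4b: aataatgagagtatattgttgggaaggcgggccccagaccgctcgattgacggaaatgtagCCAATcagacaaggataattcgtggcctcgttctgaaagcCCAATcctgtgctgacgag
The windows are chr15:99029771-99029890 on the plus strand, chr13:34078009-34078128 on the minus strand and chr2:25224703-25224822 on the minus strand. Each search covered 250 bases before and 50 bases after the start. A GC box, GGGCGG, was found in 6 of 8 members and in 35.7% of 32851 mouse promoters. A CCAAT box was found in 4 of 8 members, against 37.4% of all promoters. The letters of the TATA box, TATAAA, were in 2 of 8 members and in 13.6% of all promoters. They lay at -29 from the start in Tubb2a, but at 18, after the start, in Tubb4b. An E-box, CACGTG, was likewise in 2 of 8 members and in 7.15% of all promoters. The cyclic AMP response element TGACGTCA was in the Tubb2a promoter alone among the 8, and in 1.79% of all promoters. The heat shock motif GAANNTTC was in 0 of the 8 and in 7.86% of all promoters, and the CArG box was in 0 of the 8 and in 1.63%. The Tuba1c window printed here held none of them.

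Levels are given as FPKM, fragments per kilobase of transcript and per library size, which can be compared between genes, and for each group the lowest, median and highest of 6 livers are given. Differences are log2 fold changes of Exercise against Sedentary from edgeR on the estimated counts scaled by TMM. Their standard errors are approximate, computed as the size of the log2 fold change divided by the square root of its F statistic. The FPKM scale sits lower in the exercised livers for genes at large, with a median log2 difference over all genes of -0.09, against -0.00275 on the TMM scale, so ratios of FPKM are somewhat larger than the fitted differences.

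Tuba4a, at chr1:75214228-75219865 on the minus strand, was the most abundant alpha tubulin. Its FPKM was 141.49, 150 and 158.29 in the Sedentary livers and 94.13, 116 and 126.63 in the Exercise livers. The groups did not overlap, and Exercise 3 was the lowest liver. The fitted log2 difference was -0.30 ± 0.06 (SE, n = 6 per group). Of the windows of 100 bases in its transcript, 46.7% also occur on the opposite strand in Stk16, a kinase gene that overlaps it, and the sources used here do not say whether the counting used the strand. Stk16 itself was lower after exercise, by 0.22 on the log2 scale (edgeR adjusted p = 0.00118), and its part in the Tuba4a value was not tested.

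Tuba1a (chr15:98949837-98953703, minus strand), Tuba1b (chr15:98931425-98934565, minus strand) and Tuba1c (chr15:99029891-99038110, plus strand) form a cluster and have coding sequences that are 97.2% to 98.3% identical. Tuba1c was at 42.52, 54.7 and 73.13 FPKM in the Sedentary livers and 19.35, 24.5 and 31.26 in the Exercise livers. Every exercised liver lay below every sedentary liver, and the sedentary livers themselves were split, with replicates 1, 2 and 3 above replicates 4, 5 and 6. The fitted log2 difference of Tuba1c, -1.07 ± 0.15, was the largest in the set.

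Tuba1b, the broadly expressed alpha isotype, was at 46.21, 54.3 and 62.19 FPKM at rest and 34.27, 41.9 and 46.05 after exercise. These FPKM values did not overlap, but on the TMM scale 1 exercised liver reached into the sedentary range. The log2 difference of Tuba1b was -0.31 ± 0.07, less than that of its neighbour Tuba1c. Tuba1a, best known from neurons, was a minor transcript in liver, at 3.3, 4.66 and 5.04 FPKM in the Sedentary livers and 1.79, 2.24 and 4.06 in the Exercise livers. Exercise 2 and Exercise 6 were the exercised livers that reached into the sedentary range, and the log2 difference was -0.66 ± 0.16.

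Reads of these 3 genes can be hard to assign. Of the 100-base windows, 65.8% in Tuba1a, 73% in Tuba1b and 53.4% in Tuba1c also occur in another transcript, mostly in each other, in the readthrough gene Gm49450 or in pseudogenes. Their estimated counts were not whole numbers in any of the 12 livers, as a counter gives when it shares reads out between transcripts. A sum over the 3 genes does not depend on how reads are shared among them. In CPM, counts scaled to library size by TMM, it was 190 ± 24.8 (SD, n = 6) in the Sedentary livers and 118 ± 12.1 in the Exercise livers, a ratio of 0.62. These sums ran from 158.2 to 219.8 and from 101.4 to 131.5, without overlap.

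Tuba8 (chr6:121210696-121226854, plus strand), an alpha isotype known from testis and striated muscle, was at 2.05, 5.05 and 6.28 FPKM in the Sedentary livers and 2.34, 3 and 3.97 in the Exercise livers. The lowest of all 12 livers was Sedentary 4, so the sedentary range enclosed the exercised one. The log2 difference was -0.43 ± 0.22, and it did not pass the threshold used for all genes, an edgeR adjusted p under 0.05.

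**Figure D1:**
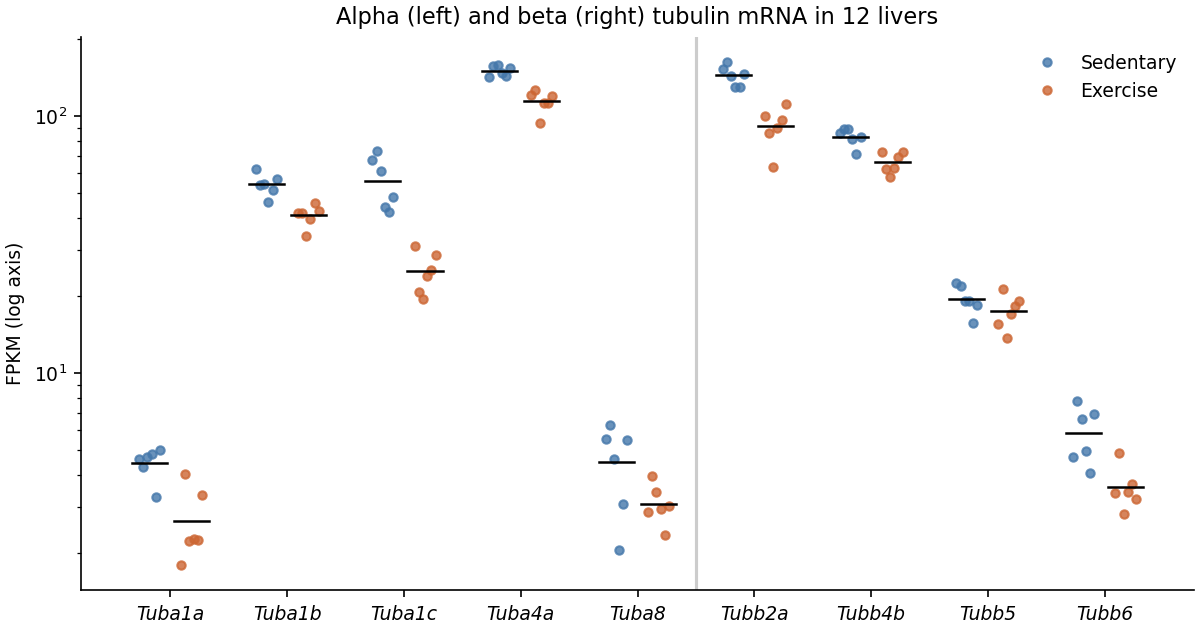
FPKM (log axis) of 9 tubulin genes, alpha on the left and beta on the right, with 1 point per liver (blue Sedentary, orange Exercise) and a line at the mean of each group of 6. Tuba1c, Tuba4a and Tubb2a show no overlap between the groups on either scale, whereas Tubb5 and Tuba8 overlap broadly. Tubb2b is left out, since it was listed at 0 FPKM in most exercised livers.

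Among the beta tubulins, Tubb2a (chr13:34074274-34078007, minus strand) was the most abundant, at 129.9, 145 and 162.59 FPKM in the Sedentary livers and 63.21, 93.5 and 111.55 in the Exercise livers. The groups did not overlap, and Exercise 3 was again the lowest liver by a wide margin. The log2 difference of Tubb2a was -0.56 ± 0.09. Its coding sequence is 96.5% identical to that of Tubb2b, and 36.9% of its windows occur in another transcript.

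Tubb2b (chr13:34126748-34130466, minus strand), a beta isotype abundant in the developing brain, was close to absent. Its estimated counts were 0 to 7.21 per liver, and it was too low to be fitted. The summed CPM of Tubb2a and Tubb2b was 217 ± 12.7 (SD, n = 6) in the Sedentary livers and 147 ± 24.9 in the Exercise livers, which are the values of Tubb2a almost unaltered.

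Tubb4b (chr2:25222160-25224702, minus strand), a broadly expressed beta isotype, was at 71, 84.6 and 89.19 FPKM at rest and 58.11, 66.3 and 72.68 after exercise. The ranges touched at their edges. Its log2 difference was -0.23 ± 0.06. Of its windows 30.6% are shared with another transcript, 27.4% with the pseudogene Tubb4b-ps1 and 1.47% with the opposite-strand gene Fam166a. Fam166a was lower by 0.29 on the log2 scale (edgeR adjusted p = 0.0102). What Fam166a reads add to Tubb4b was not tested.

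Tubb5 (chr17:35833921-35838306, minus strand), the common beta tubulin of many dividing cells, was at 15.6, 19.1 and 22.47 FPKM in the Sedentary livers and 13.66, 17.7 and 21.2 in the Exercise livers. The groups overlapped almost completely, and the log2 difference was -0.06 ± 0.08. None of its windows occurs in another transcript. Tubb6 was at 4.1, 5.81 and 7.8 FPKM at rest and 2.84, 3.43 and 4.89 after exercise, with a log2 difference of -0.61 ± 0.14. None of the Tubb6 windows is shared either.

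**Figure D2:**
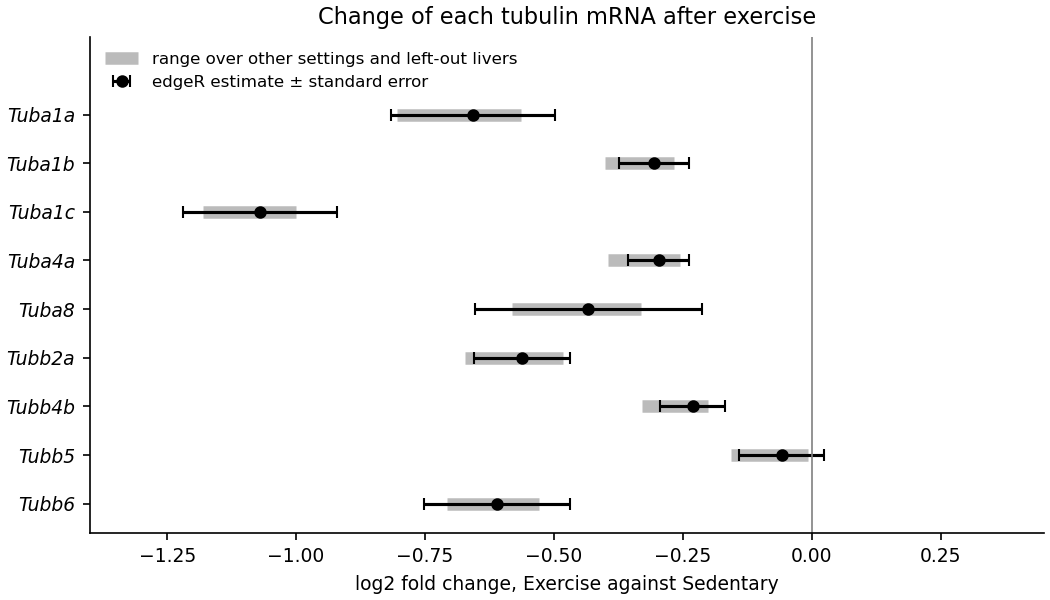
Log2 fold change of Exercise against Sedentary for the 9 fitted tubulin genes. Points are edgeR estimates with their standard errors (n = 6 per group), and grey bars span the values under other scalings, tools and filters and with each liver left out. Tuba1c lies farthest from 0, at -1.07, and Tubb5 nearest, at -0.06.

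Of the 9 fitted members, 7 were past the threshold and lower, 4 of them alpha and 3 beta, and 0 were higher. Across all 12344 genes tested, 21.3% were called lower and 21.1% higher, and 42.4% were called in either direction. Since the contrast was used in picking the set, nothing is read from the count of members. The groups did not overlap on the TMM scale for 3 members, Tuba1c, Tuba4a and Tubb2a, against 10.6% of all genes tested. The median log2 difference of the 9 members was -0.43, beside -0.00275 for all genes. That median is the value of Tuba8, which was low and did not pass the threshold.

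Spread within a group differed between isotypes. The coefficient of variation over 6 livers on the TMM scale was 4.86% for Tuba4a and 33.6% for Tuba8 in the Sedentary group, and 7.34% for Tuba1b and 30.4% for Tuba1a in the Exercise group. For all genes averaging 5 CPM or more, the median coefficient was 9.59% and 8.2%. Tuba1c, the member with the largest difference, also varied more than most genes, with 20.3% and 18.3%. Exercise 3 was the lowest exercised liver for 5 of the 9 members.

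In order of FPKM, the Sedentary livers ran Tuba4a, Tubb2a, Tubb4b, Tuba1c, Tuba1b, Tubb5, Tubb6, Tuba8, Tuba1a and Tubb2b. Several neighbours overlapped. Tuba4a was above Tubb2a in 4 of 6 livers, Tubb4b above Tuba1c in 6 of 6 but with touching ranges, Tuba1c above Tuba1b in 3 of 6, Tubb6 above Tuba8 in 5 of 6 and Tuba8 above Tuba1a in 3 of 6. Steps without overlap were those from Tubb2a to Tubb4b, from Tuba1b to Tubb5, from Tubb5 to Tubb6 and from Tuba1a to Tubb2b. In the Exercise livers the order was the same except that Tuba1b stood above Tuba1c in 6 of 6 livers, without overlap. Tuba1c then neighboured Tubb5, which it exceeded in 5 of 6 exercised livers.

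The isotype mix was described as the share of each gene in its family's summed FPKM, a measure that scaling between libraries leaves as it is. Tuba4a held 55.9% ± 3.65 (SD, n = 6) of alpha tubulin mRNA at rest and 61.5% ± 1.52 after exercise. Tuba1c held 20.7% ± 3.28 and 13.3% ± 1.77, without overlap, since its shares ran from 17.4% to 24.9% and from 10.5% to 15.7%. Tuba1b held 20.2% ± 1.51 and 22.1% ± 1.21. Tuba1a held 1.66% and 1.42%, and Tuba8 held 1.64% and 1.68%.

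Tubb2a held 57% ± 1.41 of beta tubulin mRNA in the Sedentary livers and 50.8% ± 2.85 in the Exercise livers. Its shares ran from 55.1% to 58.9% and from 45.9% to 54%, without overlap. Tubb4b had the higher share after exercise, 33% ± 1.22 against 37.3% ± 2.54, again without overlap, and Tubb5 held 7.67% ± 0.533 and 9.82% ± 1.32. The higher shares of Tubb4b and Tubb5 were shares of a smaller total, and the levels of both genes had the lower estimates given above.

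**Figure D3:**
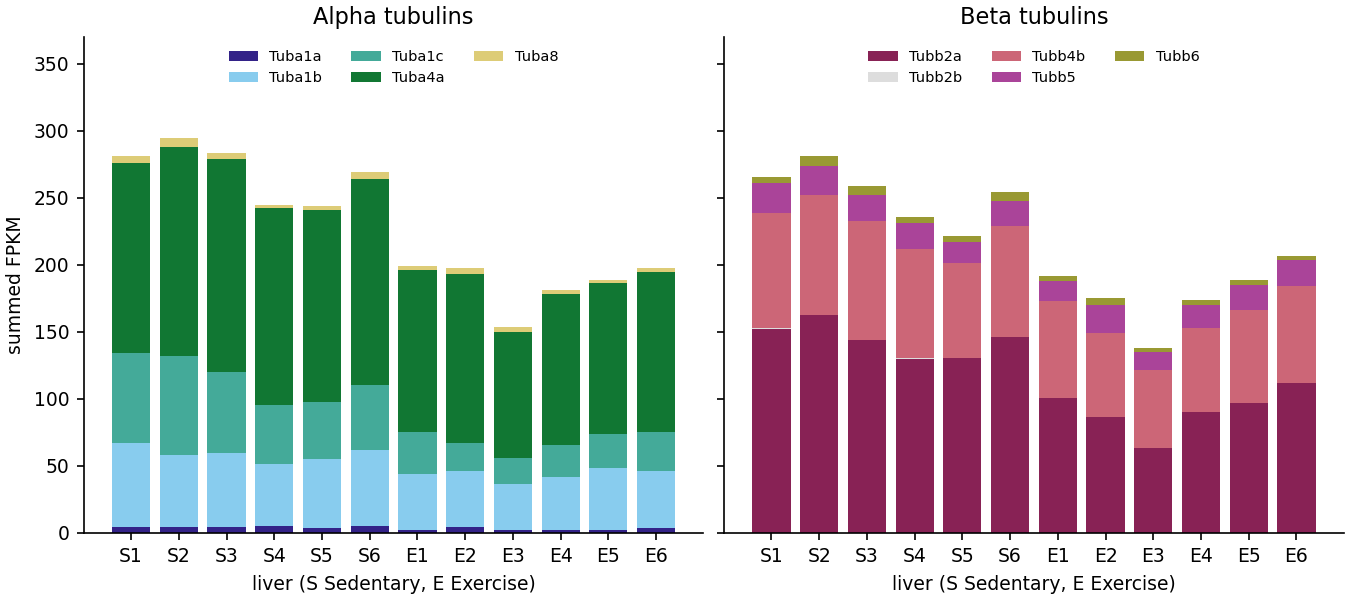
Summed FPKM of alpha tubulin genes (left) and beta tubulin genes (right) in each of 12 livers, stacked by gene. The stacks of the exercised livers are shorter in both panels, and among the large segments those of Tuba1c and Tubb2a are reduced in share, from 20.7% to 13.3% and from 57% to 50.8%.

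The families were lower together. Summed alpha tubulin was 269 ± 21.1 FPKM (SD, n = 6) in the Sedentary livers and 186 ± 17.4 in the Exercise livers, a ratio of 0.691. Summed beta tubulin was 253 ± 21.5 and 179 ± 23.5, a ratio of 0.707. The total of the 10 genes ran from 465.06 to 575.61 FPKM at rest and from 291.22 to 403.94 after exercise, so that the groups were separate. On the TMM scale the log2 ratios were smaller, -0.44 for alpha and -0.39 for beta, and the summed CPM did not overlap either.

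The ratio of alpha to beta differed between the groups by less than the spread within the Sedentary group. It was 1.07 ± 0.0256 in the Sedentary livers and 1.05 ± 0.0658 in the Exercise livers, with ranges of 1.04 to 1.1 and 0.955 to 1.13. Whether alpha and beta sums move together from liver to liver within a group is a separate question, one that the picking of the set did not use. In the 6 Sedentary livers, Pearson's r on the log2 scale was 0.959 (exact permutation p = 0.00556, adjusted p = 0.0111 over 2 groups) and Spearman's rho was 0.943 (exact permutation p = 0.0167, adjusted p = 0.0333). Without the 2 livers farthest from the median, r was 0.895. On summed CPM r was 0.877 (exact permutation p = 0.025, adjusted p = 0.0417), but rho, at 0.886, no longer passed (exact permutation p = 0.0333, adjusted p = 0.0667).

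For the 6 Exercise livers, r was 0.913 (exact permutation p = 0.0528) and rho was 0.714 (exact permutation p = 0.136), neither of which passed. Without the 2 livers farthest from the median r was 0.0774, and without Exercise 3 alone it was 0.516, so on the FPKM scale this relation rests on those livers. On summed CPM, r was 0.902 (exact permutation p = 0.0417, adjusted p = 0.0417), and 0.734 without the 2 farthest livers. Alpha and beta values of a liver come from a single library and share its scaling. The difference between the groups in r was not tested.

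**Figure D4:**
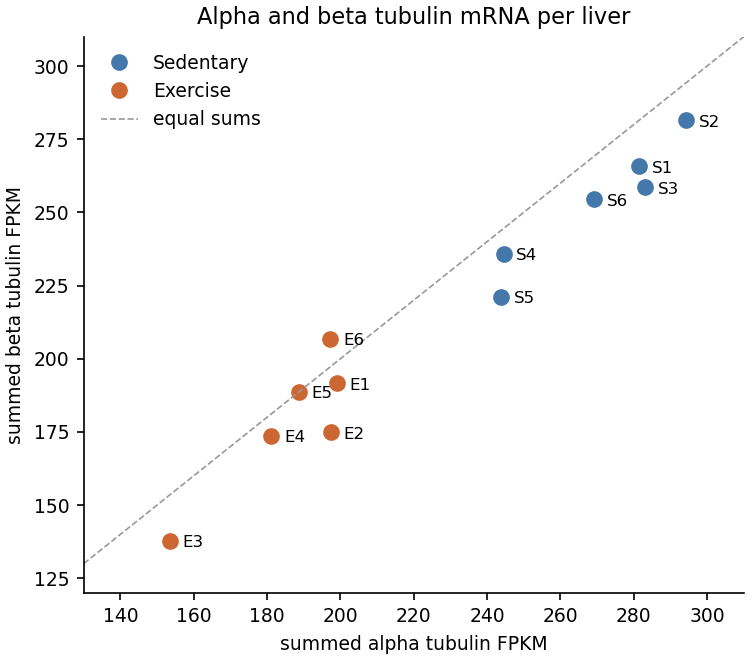
Summed beta tubulin FPKM against summed alpha tubulin FPKM, 1 point per liver, with a dashed line where the sums are equal. The Sedentary livers (blue, S1 to S6) spread along the line at 465.06 to 575.61 FPKM in total, and Exercise 3 (E3) stands apart at the low end of the Exercise livers (orange).

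A gene's estimated count divided by its FPKM gives the transcript length the counting assumed in a library. No member passed the threshold for this length (limma, adjusted p = 0.205 to 0.414 over the 9 members, 3 of them with an unadjusted p under 0.05), beside 1.22% of 9035 genes. The sizes were 0.00158 to 0.00332 on the log2 scale, near the median size of 0.00313 over all genes, whose 95th percentile was 0.0492. The members moved together between libraries, with Sedentary 4 highest for all but Tuba4a. Their 3 unadjusted p are therefore not separate results.

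By the likeness of their liver-to-liver variation, with group means removed, the 5 genes closest to the summed tubulin level were Rmnd1 (r = 0.934), Nat8f5 (0.933), Cyp2c55 (0.933), Hdhd2 (0.92) and Bri3bp (0.919), over 12 livers and out of 8843 genes. These r values are the extremes of a long list. The sum was in FPKM and each gene in TMM-scaled CPM, so the scales differ. Exercise 3 had the lowest TMM factor, 0.9141, and the lowest sum, 291.22 FPKM. Sedentary 2 had the highest of both, 1.087 and 575.61 FPKM. The part of scaling in these r values was not tested. Among the members, Tubb2a (0.887) and Tuba1c (0.752) had the highest r with the sum, of which each member is itself a part, and Tuba1a (0.192) and Tuba8 (0.293) were among the lowest.

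Of 9 other tubulins in the table, only gamma tubulin Tubg1, which nucleates microtubules, and delta tubulin Tubd1, of the centriole, could be fitted, and both were lower. Tubg1 was at 48.4 ± 3.18 CPM (SD, n = 6) and 38.9 ± 0.995, a log2 difference of -0.32 ± 0.05 (edgeR adjusted p = 0.000133). Tubd1, named after its values were seen, was lower by 0.69 on the log2 scale (edgeR adjusted p = 0.000336). The neuronal isotype Tubb3 and the platelet isotype Tubb1, also named after their values were seen, stayed at 0 to 4.71 and 0 to 2 estimated counts per liver.

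The lists of tubulin folding genes belong to the pathway that led to the choice of the set and are given as descriptions, without a test. Of 21 genes, all fitted, 5 were lower and 1 was higher past the threshold, a share of 28.6%, below the 42.4% of all genes. The tubulin cofactors assemble the heterodimer after folding, and their list of 7 genes also holds Tbcel and Arl2, which are not among those cofactors. Of the 7, 4 were lower, Tbcel among them, and none was higher. Tbcc, the cofactor that acts last in the release of the dimer, was at 6.33 ± 1.01 CPM at rest and 3.69 ± 1.09 after exercise, a log2 difference of -0.78 ± 0.16. Tbcel, a relative of cofactor E, was at 45.2 ± 5.75 and 28.9 ± 2.48, a difference of -0.65 ± 0.08. Tbce and Tbcd were lower too, and Tbca had the highest estimate of the list, 0.08.

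Among the 6 prefoldin subunits, which hand nascent chains to the chaperonin, 1 was lower, Pfdn4, with a log2 difference of -0.46 ± 0.13, and the highest estimate was that of Vbp1, 0.08. Of the 8 subunits of TRiC, which folds both actin and tubulin, none was lower and 1 was higher, Cct7, with 0.17 ± 0.06. The lowest estimate in TRiC was that of Cct6a, -0.11, and the median of the 8 was 0.05.

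Genes outside the folding pathway that act on tubulin or microtubules were lists of which 107 of 125 could be fitted. Of these, 22 were lower and 27 higher, 45.8% in all against 42.4% of all genes, with a median log2 difference of 0.03, and with library size alone as the scaling the balance turned to 28 lower and 19 higher. The share of genes called was near that of all genes. In the gamma-tubulin ring complex 5 of 9 were lower and 2 higher, with Tubgcp2 at -0.51 ± 0.09 (edgeR adjusted p = 0.000177), Tubgcp4 at 0.33 ± 0.06 (edgeR adjusted p = 0.000258) and Nedd1, which recruits the complex, at 0.47 ± 0.11 (edgeR adjusted p = 0.00332). In the tubulin mRNA autoregulation list, which holds Ttc5, Scaper and subunits of the CCR4-NOT deadenylase, 4 of 12 were lower and 2 higher. Cnot8, a catalytic deadenylase, was at -0.20 ± 0.06 (edgeR adjusted p = 0.00773), and Cnot6l, another, was at 0.30 ± 0.07 (edgeR adjusted p = 0.00166). Cnot9 and Cnot3, further subunits, were at -0.22 and 0.24 (edgeR adjusted p = 0.0114 and 0.0078). Ttc5, named after its values were seen, was at 4.2 ± 0.793 CPM at rest and 3.3 ± 0.158 after exercise, a log2 difference of -0.35 ± 0.12 (edgeR adjusted p = 0.0291).

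For the tubulin-modifying enzymes, 5 of 17 were lower and 4 higher. Hdac6, the alpha tubulin deacetylase, was lower by 0.22 (edgeR adjusted p = 0.0252), and Ttll12 was lower by 0.29 (edgeR adjusted p = 0.0296), while Ttll4, a glutamylase, and Agtpbp1, which removes glutamate chains, were higher by 0.39 and 0.32 (edgeR adjusted p = 0.000225 and 0.00136). For the genes of microtubule binding and dynamics, 4 of 29 were lower and 9 higher. The plus-end binder Clip1 was at 28.4 ± 3.39 CPM and 54.3 ± 6.07, a log2 difference of 0.93 ± 0.08 (edgeR adjusted p = 2.23e-07). Camsap1, a minus-end binder, was higher by 0.90 (edgeR adjusted p = 2.94e-07), and its relative Camsap3 was lower by 0.28 (edgeR adjusted p = 0.00282). Mapre3, an end-binding protein, was at -0.58 ± 0.06 (edgeR adjusted p = 5.42e-07).

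For the motors that run on microtubules, of 16 kinesin transport genes 1 was lower and 5 were higher, among them the neuronal kinesin Kif3c with 0.71 ± 0.10 (edgeR adjusted p = 3.09e-05) and the kinesin light chain Klc4 with 0.39 ± 0.06 (edgeR adjusted p = 5.55e-05). In the dynein and dynactin list, 3 of 24 were lower and 5 higher. The dynactin subunit Dctn6 was at -0.37 ± 0.07 (edgeR adjusted p = 0.000552) and the dynein regulator Nde1 at -0.25 ± 0.09 (edgeR adjusted p = 0.0277), with the adaptor Bicd2 at 0.71 ± 0.09 (edgeR adjusted p = 9.43e-06) and the regulator Pafah1b1 at 0.37 ± 0.05 (edgeR adjusted p = 2.69e-05).

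**Figure D5:**
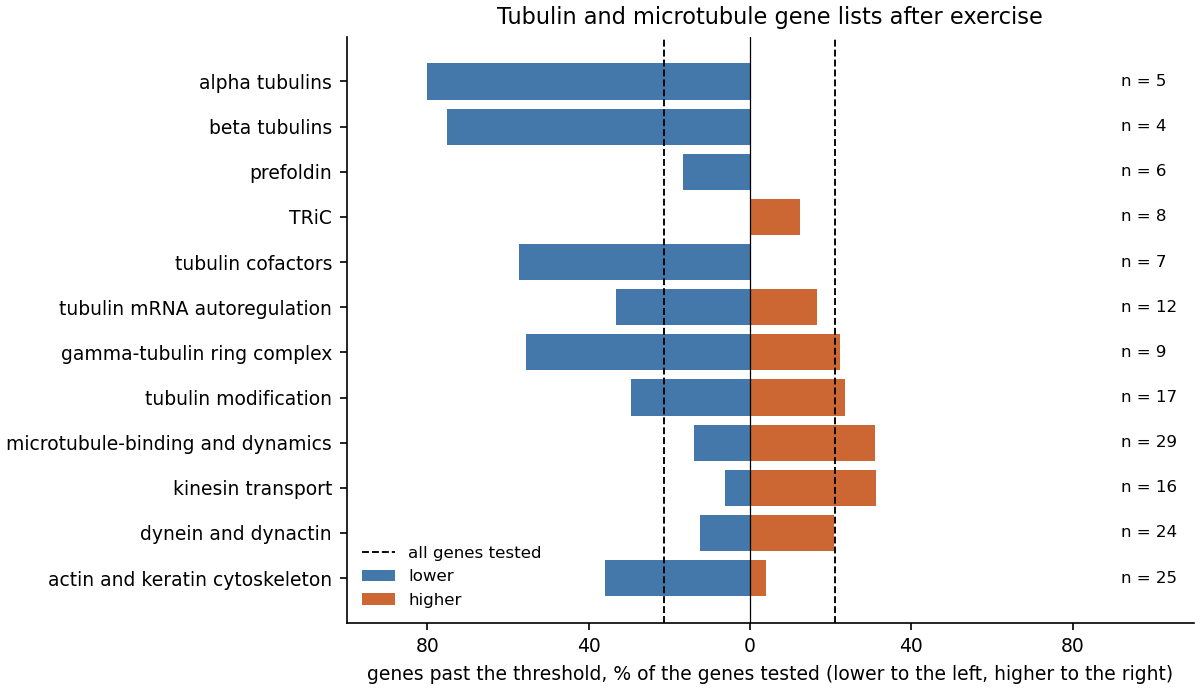
Percent of the fitted genes of each list that passed the threshold lower (left, blue) or higher (right, orange) after exercise, with n the genes fitted. Dashed lines mark the shares of all genes tested, 21.3% lower and 21.1% higher. The alpha and beta bars show members picked on this contrast and are descriptive.

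In the actin and keratin list, 9 of 25 were lower and 1 was higher, the tropomyosin Tpm4, at 0.24 ± 0.09 (edgeR adjusted p = 0.0412). Another tropomyosin, Tpm3, was lower by 0.35 (edgeR adjusted p = 1.55e-05). Actb, cytoplasmic beta actin, was at 461 ± 66.5 CPM and 275 ± 44.9, a log2 difference of -0.75 ± 0.11 (edgeR adjusted p = 7.38e-05). Actg1, gamma actin, was at 139 ± 43.8 and 50.5 ± 2.19, a log2 difference of -1.46 ± 0.20 (edgeR adjusted p = 0.000128). For comparison, the ribosomal protein gene Rplp0 was at 449 ± 25.5 and 461 ± 14.1, a log2 difference of 0.04 ± 0.05 (edgeR adjusted p = 0.61). Of 7 fitted cell division genes, 0 were lower and 2 were higher. The summed CPM of all 16 genes of that list was 7.2 to 10.2 at rest and 8.6 to 12.9 after exercise.

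Markers of the cell types that liver can hold were set beside the tubulins. Hepatocyte markers summed to 124000 to 165000 CPM in the Sedentary livers and 153000 to 176000 in the Exercise livers, with 0 of 9 lower and 3 higher, and these defining genes of hepatocytes were high in every library. Alb, albumin, was at 0.24 ± 0.08, Tat, tyrosine aminotransferase, at 1.83 ± 0.10 and the hepatocyte factor Hnf4a at 0.59 ± 0.07 (edgeR adjusted p = 0.0253, 1.03e-09 and 4.97e-06). Of the 21 Kupffer cell, cholangiocyte, lymphocyte and red cell markers fitted, edgeR called 0, with 1 at an unadjusted p under 0.05, and DESeq2 and limma-voom called 0 each. Of 7 sinusoidal markers 1 was lower and 3 were higher, with summed CPM of 142 to 197 and 160 to 242. Kdr, a growth factor receptor of endothelium, was at -0.19 ± 0.07, Pecam1 at 0.49 ± 0.10 and Lyve1 at 1.18 ± 0.24 (edgeR adjusted p = 0.0412, 0.000675 and 0.00245). Of 7 stellate cell markers 2 were lower, among them Lrat at -0.59 ± 0.20 (edgeR adjusted p = 0.0316), and the summed CPM was 165 to 223 and 152 to 224.

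Striated muscle markers did differ. All 4 fitted were lower, and the list summed to 11.4 to 23.6 CPM in the Sedentary livers and 0.058 to 11.5 in the Exercise livers. Myh6, the cardiac myosin heavy chain and named after its values were seen, had 85.15 to 212.42 estimated counts in the Sedentary livers, 105.98 in Exercise 1 and 0 in the other 5 exercised livers. Without Exercise 1 the median log2 difference over the 9 members was -0.41, the value of Tuba8, and 7 members were past the threshold. That refit leaves Myh6 counts in the Sedentary livers alone, so it cannot separate muscle RNA from the groups. The part of muscle RNA in the tubulin values was not tested.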

How the data were processed

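mRNA-seq libraries of 12 livers were sequenced, with groups taken from the treatment in the labels. The submitters' processing notes name Bowtie2 2.3.4.3, RSEM 1.3.1 and the mm10 build, without their order. The authors deposited 1 table with an estimated (expected) count and an FPKM value per gene and library: the deposited expected counts are not scaled between libraries and 31.3% are not whole, and the FPKM values deposited by the authors are scaled for transcript length and depth. The annotation and the use of strand are not given in the sources used here.

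Estimated counts were rounded and fitted with edgeR 4.0.16 (quasi-likelihood, TMM scaling, robust, genes kept by filterByExpr with a minimum count of 10) in R 4.3.3, with Benjamini-Hochberg adjustment over 12344 genes and a threshold of 0.05. limma 3.58.1 and DESeq2 1.42.0 served for alternatives and limma for the assumed length, over genes with an FPKM of at least 1 in all livers. CPM are counts scaled to library size by TMM. Exact permutation tests were two-sided (scipy 1.17.1). The fits were run on simulated data. The simulated counts held far fewer changed genes than were called here, with changes larger than those of most members. That run does not show how the fits perform at the sizes seen here. The biological coefficient of variation was 11.3%. None of the 66 pairs of libraries was identical. P-values measure the spread between the 12 mice.

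The members and all gene lists were chosen with earlier results of these data known. The text names all 10 members, in each other list up to 2 genes per direction with the smallest p among those past the threshold and with a mean of at least 5 CPM, the extremes of the folding lists, the 5 genes most alike the summed level, and Actb, Actg1, Alb and Rplp0, with exceptions stated. Shared windows of 100 bases and coding sequences came from GENCODE M21, promoters from RefSeq. Tubb6 sequence is not reported here.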

Additional observations from a re-analysis of the deposited data

Results flagged for a closer look

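Tubb6 in Exercise 2 stood apart from the other exercised livers, at 8.2 CPM against 6.34 in the next highest, a gap of 0.636 of the whole range of the group, above the 95% critical value of Dixon's test for 6 values. It was the only one of 24 groups checked (the 9 fitted members, the alpha and beta sums and their ratio, in each treatment) to do so, and chance sets apart about 1 in 20 groups, or 1.2 of 24.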

How the results depend on the processing

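The log2 differences of the 9 fitted tubulins stayed below 0 in all 20 refits. These were 8 other scalings, tools, filters or the replicate block, and each of 12 livers left out. All of them reuse these livers and the contrast that picked the set, so they describe the processing and add no support. Tuba8 crossed the threshold only without Sedentary replicate 4 (-0.58). The median over members was -0.54 to -0.37 under the 8 alternatives and -0.58 to -0.33 with a liver left out. In all 20 refits this median was the value of Tuba8, so its range is that of 1 low gene. Genes called numbered 4956 to 5502 and 4739 to 5222, and microtubule genes called 44 to 50 and 40 to 48. With library size alone or on log2(FPKM + 0.1), the median of all genes moved to -0.10 and -0.09 and the share of calls that were higher fell from 49.8% to 32.1% and 31.4%, and Tuba4a moved to -0.39 and -0.40. The log2 ratio of sums with a liver left out was -0.56 to -0.48 for alpha and -0.55 to -0.44 for beta. The assumed length called 0 members in every refit, though Tuba4a turned to 4.95e-05 at an FPKM of at least 5. These values are centred on each library's median over the genes kept, which that cut changes. The other members kept there moved toward 0 as well, such as Tuba1b from -0.0026 to -0.000792 and Tubb5 from -0.00272 to -0.000921. The part of the centring in this was not tested.

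The alpha to beta relation was less stable. In the Sedentary group r was 0.895 without the 2 farthest livers (exact permutation p = 0.167), where 4 livers are too few to pass, 0.941 to 0.98 with 1 left out, and 0.877 on summed CPM, where rho lost its call (adjusted exact permutation p = 0.0667). For the Exercise group r was 0.902 on summed CPM (adjusted exact permutation p = 0.0417), and 0.516 to 0.978 with 1 left out, the highest without Exercise replicate 2 (exact permutation p = 0.0333).

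Replicate numbers gave no clear sign of pairing, since the correlation of same-numbered deviations ran from -0.18 to 0.19. For replicates 1 and 2 alone, the same number was the best match in both directions. With so few livers the check cannot exclude a pairing. With the replicate number as a block, 4956 genes and 44 microtubule genes were called, the median of the members was -0.39, 7 members passed and 0 had a changed assumed length. Estimated counts below about 10 per liver, as for Tubb2b, were too low to compare.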
